A study of Mus musculus with 12 samples.

Results

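The nuclear RNA polymerases of the mouse 2-cell embryo were followed through the transcripts of their subunits. The genes were those whose array probe sets carry a single platform symbol that begins with Polr1, Polr2 or Polr3 and a subunit letter from a to l, and older Rpo names were to count too. The rule gave 24 genes with 52 probe sets, out of 18163 genes and 44937 probe sets on the array. One probe set stood for each gene, that with the highest mean log2 value over the 12 arrays. The 24 genes comprise 3 subunits of polymerase I alone (Pol I), 2 that Pol I and Pol III share, 3 that all 3 enzymes share, 7 of Pol II alone and 9 of Pol III. Polr2k and Polr2l, both shared by the 3 enzymes, lay on probe sets with several symbols and were not taken.

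Gene expression was measured at the mid-2-cell stage in 4 groups of 3 arrays. Embryos came from superovulated wild-type F1 (C57BL6xDBA/2) females of 3 to 5 weeks mated with wild-type males, and were recovered 17 h after hCG in pools from 3 to 6 females. Oct4-MO embryos received 0.6 mM of a morpholino oligonucleotide (MO) against the translational start site of Oct4 (Pou5f1), injected into the cytoplasm at the pronuclear stage. Ccna2-MO embryos received an MO against Ccna2, which encodes cyclin A2, at a labelled dose of 0.6 mM, while the methods of the study give a higher concentration for it, so that equal doses cannot be taken as given. Each experiment had its own uninjected embryos, drawn from the same embryo pools and cultured in parallel. RNA was extracted from 20 embryos per array, and material equal to 10 of them went through 2 rounds of amplification. No array of embryos injected with a control MO was used here. On these arrays the injection itself and the loss of the targeted protein cannot be told apart where injected embryos are set against uninjected ones. The study states that in its single-embryo PCR a control MO against a human globin gene changed none of the assayed genes. Assays for Polr2h, Polr3e and Polr3a were among those listed. The PCR values were not available here, and an effect of injection on the arrays was not tested. The difference between the knockdowns sets one MO against the other. The arrays measured pools, so fewer embryos with a transcript and less of it per embryo cannot be told apart either. The values are linear array intensities in arbitrary units, and they were compared as log2(value + 16).

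In eukaryotes Pol I transcribes the large ribosomal RNA precursor, and Pol II the messenger RNAs and many small RNAs. Pol III transcribes the transfer RNAs, the 5S ribosomal RNA and other short transcripts. Each enzyme has its own pair of large catalytic subunits, around which sit smaller subunits, some private to one enzyme and some common to several. In the mouse the fertilized egg is nearly silent, and the major wave of embryonic transcription begins at the 2-cell stage, while the messenger RNAs stored by the oocyte are being cleared. A subunit transcript at this stage can therefore be maternal, embryonic or both, and the arrays do not separate the sources.

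The embryo identity of the samples was checked first. All 12 measured markers of the oocyte and early embryo were above 16 on every array. Of these, Zar1, a gene of the oocyte, rose in the mean of both knockdowns (log2 change 2.02, standard error 0.28, adjusted p = 0.0067) and in Ccna2-MO embryos (2.19, adjusted p = 0.033), and Dppa3 fell in the mean (-0.17, 0.04, adjusted p = 0.047; 0.053 with the pairs as a block). Of 11 measured markers of cumulus cells, which surround the egg and were removed, 2 were above 16 on every array, Amhr2 (187 to 989) and Col4a1, and 3 were below 16 on every array, Inha, Fshr and Inhba. The summed cumulus markers ranged from 344 to 679 on the Oct4-MO arrays against 517 to 620 on their uninjected arrays, and from 369 to 1140 on the Ccna2-MO arrays against 742 to 1080, so the ranges overlapped in each experiment. The ratio of the 3′ to the 5′ control probe set of Gapdh, a sign of RNA integrity and amplification, ran from 2.36 to 5.94 over all arrays and overlapped between injected and uninjected arrays in both experiments. The part of these markers and of RNA quality in the results below was not tested. The MO acts on translation and need not lower its target transcript. Pou5f1 was 2290, 1830 and 2470 on the Oct4-MO arrays and 1800, 1860 and 2110 on their uninjected arrays (log2 difference 0.18, standard error 0.13, adjusted p = 0.77). Ccna2 was 3180, 3200 and 4400 on the Ccna2-MO arrays and 3950, 3440 and 4220 on theirs (log2 difference -0.12, standard error 0.14, adjusted p = 0.76). Neither array measurement tests the knockdown.

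The first comparison asked whether polymerase subunit transcripts differed after each knockdown. In Oct4-MO embryos 0 of the 24 genes passed an adjusted p of 0.05, where 0.0936% of all genes passed. In Ccna2-MO embryos 0 of 24 passed, against 0.93% of all genes. With the pair of injected and uninjected arrays as a block the counts over all genes fell from 17 to 3 in Oct4-MO and from 169 to 71 in Ccna2-MO embryos, and those of the subunits stayed at 0. At an unadjusted p under 0.05, 3 subunits were lower in Oct4-MO embryos, Polr2h, Polr3e and Polr3g, and 0 were higher, where 5.96% of all genes were lower and 4.66% higher. Of the 11417 genes brighter than the median probe set, as all 24 are, 986 were lower and 622 higher. After Ccna2-MO 6 were lower, the same 3 genes with Polr1e, Polr2d and Polr3b, and 2 were higher, Polr2c and Polr3gl, where 8.5% of all genes were lower and 8.22% higher. Of the 11417 brighter genes, 1357 were lower and 1217 higher.

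Both knockdowns were then averaged, which rests on all 12 arrays. In the mean change of both knockdowns 2 of 24 subunits fell, Polr2h and Polr3e, where 2.02% of all genes were called lower, and 3.2% of those brighter than the median probe set, as all 24 are, and 0 rose, where 1.19% of all genes were called higher. At an unadjusted p under 0.05, 9 of 24 were lower in this mean, where 10.2% of all genes were, and 2, Polr2c and Polr3gl, were higher, where 8.52% of all genes were. Of the 11417 brighter genes, 1702 were lower and 1257 higher. The 9 lower ones were Polr1c, Polr1d, Polr1e, Polr2h, Polr3a, Polr3b, Polr3e, Polr3g and Polr3k. Of the 7 genes private to Pol II 0 were among them, which so few genes cannot set apart from the 10.2% over all genes. One of the 7, Polr2d, was lower after Ccna2-MO at that p. The median log2 change over the 24 genes was -0.28 after Oct4-MO and -0.41 after Ccna2-MO injection, while that over all genes was 0.01 and 0.03. Below 0 lay 17 of 24 and 16 of 24 subunits, against 48.5% and 46.8% of all genes.

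**Figure D1:**
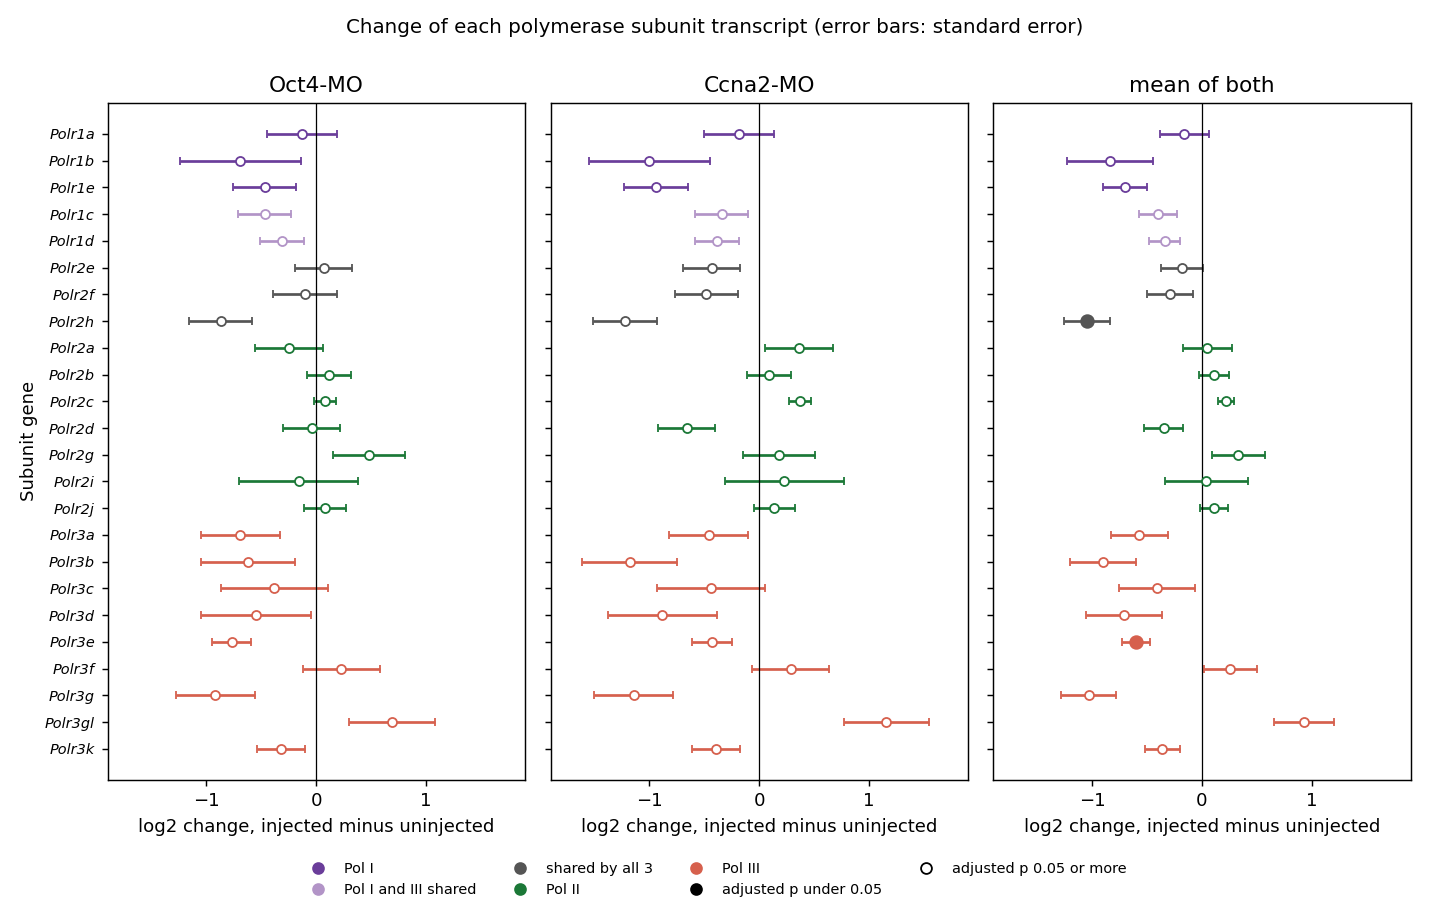
Log2 change (x axis, injected minus uninjected, on the log2(value + 16) scale) of each of the 24 subunit genes (y axis, grouped by polymerase) after Oct4-MO, after Ccna2-MO and in the mean of both. Points are the limma estimates, bars their standard errors and filled points those with an adjusted p under 0.05; Polr2h at -1.05 and Polr3e at -0.60 in the mean are the filled points, and 6 of the 7 Pol II genes lie at or above 0.04 there.

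The medians differed by enzyme. Over the 9 Pol III genes the median log2 change was -0.55 after Oct4-MO and -0.44 after Ccna2-MO injection, with 7 of 9 genes below 0 in each. Over the 3 Pol I genes it was -0.47 and -0.94, with all 3 below 0 in each. Over the 7 Pol II genes it was 0.08 and 0.18, with 3 of 7 and 1 of 7 below 0. The genes common to Pol I and Pol III had medians of -0.39 and -0.36, and those common to all 3 enzymes -0.10 and -0.48. Without Oct4-MO array 2 or 3 or uninjected array 1 the Pol I median in Oct4-MO embryos was -0.31, -0.20 and -0.28, and without Ccna2-MO array 2 that in Ccna2-MO embryos was -0.38. The Pol II median in Oct4-MO embryos ran from -0.01, without uninjected array 3, to 0.19, without Oct4-MO array 2, and was 0.01 and 0.02 without Oct4-MO arrays 1 and 3 and -0.11 with all 6 uninjected arrays as controls. That in Ccna2-MO embryos was 0.06 without uninjected array 1 and 0.31 with all 6 uninjected arrays as controls. The Pol III median in Oct4-MO embryos was -0.22 with each gene taken as the mean of its probe sets and -0.32 with 64 in place of 16 in the logarithm. These medians describe the chosen genes, and no test of the difference between enzymes was made on them.

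The 3 arrays of a group spread widely in these medians. Taken as the median log2 deviation from the mean of the uninjected arrays, the Pol III genes stood at -0.19, -0.83 and -0.34 on the Oct4-MO arrays and at 0.14, -0.11 and -0.11 on their uninjected arrays. In the Ccna2 experiment they stood at -0.37, -0.74 and -0.22 on the injected arrays and at 0.09, -0.07 and 0.17 on the uninjected ones. In both experiments every injected array lay below every uninjected array in this median of the 9 Pol III genes. How often other sets of genes lie apart in this way was not counted. The genes that Pol I and Pol III share overlapped in each experiment. They stood at 0.04, -0.57 and -0.63 against 0.11, -0.16 and 0.06 in the Oct4 experiment. In the Ccna2 experiment they stood at -0.40, -0.72 and 0.04 against -0.10, -0.04 and 0.15. The Pol II genes stood at 0.17, -0.17 and 0.05 against 0.15, 0.01 and -0.07 in the Oct4 experiment, and at 0.07, -0.10 and 0.30 against -0.19, 0.07 and 0.10 in the Ccna2 experiment, with overlap in each. The Pol I genes also overlapped in each, at -0.13, -0.23 and -0.55 against 0.24, -0.07 and -0.17, and at -0.18, -1.55 and -0.57 against 0.10, -0.26 and 0.10. Those shared by all 3 enzymes were apart in the Ccna2 experiment, at -0.63, -0.75 and -0.34 against -0.16, 0.03 and 0.13. In the Oct4 experiment they overlapped. Injected array 2 was the lowest for Pol III in each experiment, and its Gapdh 3′ to 5′ ratio, 2.8 in Oct4-MO and 2.36 in Ccna2-MO, was also the lowest of its experiment. The same ratio for Actb was 0.824 on the former, the highest of the Oct4 experiment, and 0.451 on the latter, within the range of the Ccna2 experiment. Without injected array 2 the median over all 24 genes was -0.11 after Oct4-MO and -0.18 after Ccna2-MO injection, and the Pol III median was -0.38 and -0.27. Without Oct4-MO array 1 the median over the 24 genes was -0.46. With each gene taken as the mean of its probe sets it was -0.13 in Oct4-MO embryos, and with all 6 uninjected arrays as controls it was -0.26 in Ccna2-MO embryos.

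**Figure D2:**
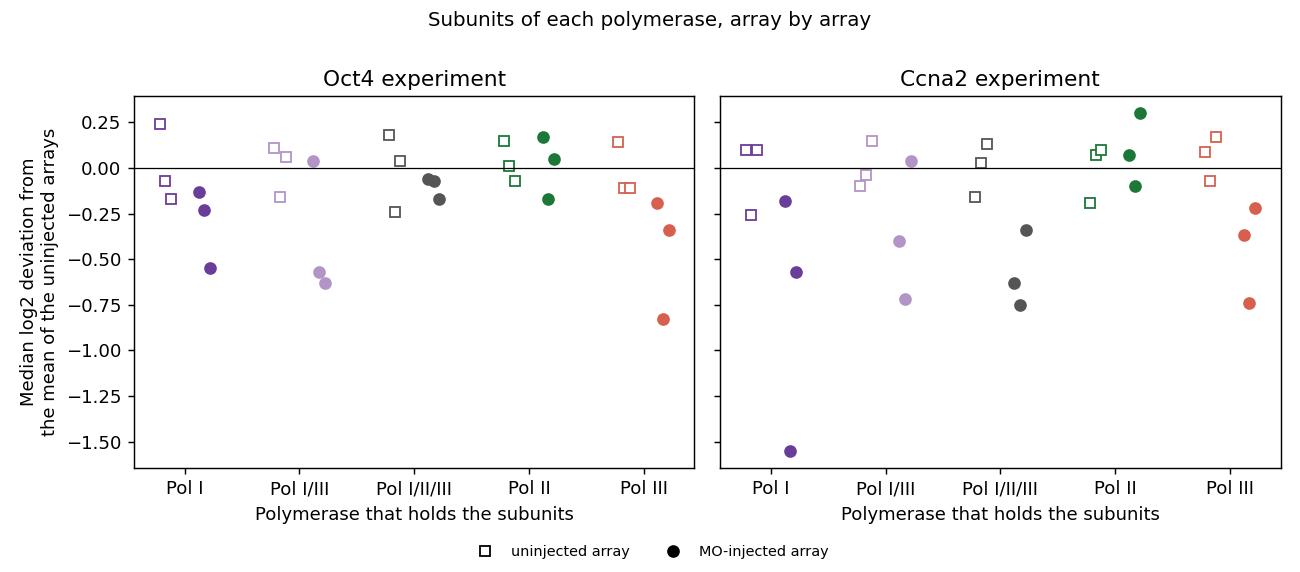
Median log2 deviation from the mean of the uninjected arrays of the same experiment (y axis) over the subunits private to Pol I, shared by Pol I and III, shared by all 3 enzymes, private to Pol II or belonging to Pol III (x axis), with 1 symbol per array. Open squares are uninjected and filled circles MO-injected arrays; the Pol III circles, from -0.83 to -0.19, lie below all Pol III squares, and the Pol II circles, from -0.17 to 0.30, overlap their squares.

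Polr2h encodes RPABC3, a small subunit that sits in all 3 nuclear enzymes, and it had the lowest log2 change of the 24 genes in the mean of both knockdowns. The gene lies at chr16:20717826-20722272 in the GRCm38.p6 build. Polr2h was 547, 408 and 194 on the Oct4-MO arrays and 751, 563 and 679 on their uninjected arrays, and 445, 500 and 491 on the Ccna2-MO arrays and 1020, 1160 and 1240 on theirs. The groups did not overlap in either experiment, and the injected array was lower in 6 of 6 pairs. The log2 change was -0.87 (standard error 0.29, adjusted p = 0.34) in Oct4-MO and -1.22 (0.29, adjusted p = 0.081) in Ccna2-MO embryos. Without Oct4-MO array 3 the change in Oct4-MO embryos was -0.47 (adjusted p = 0.64). That array had the highest 3′ to 5′ ratio of Gapdh, 5.94, and the lowest of Actb, 0.308, of the 12 arrays. The mean of both knockdowns was -1.05 (standard error 0.21, adjusted p = 0.026), a 2.07-fold fall. Leaving out 1 uninjected array ended that call in 5 of 6 cases: the adjusted p was 0.085 and 0.075 without uninjected arrays 1 and 3 of the Oct4 experiment, and 0.053, 0.05 and 0.068 without uninjected arrays 1, 2 and 3 of the Ccna2 experiment. Over the 12 arrays left out in turn it ran from 0.0099 to 0.085.

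Polr3e encodes RPC5, a Pol III subunit that pairs with RPC4, the product of Polr3d, and it was the other gene that fell. It lies at chr7:120917778-120947435. Polr3e was 1170, 857 and 819 on the Oct4-MO arrays and 1890, 1490 and 1480 on their uninjected arrays, and 1430, 1070 and 1530 on the Ccna2-MO arrays and 1670, 1700 and 2010 on theirs. Again neither experiment had an overlap and 6 of 6 pairs were lower. The log2 change was -0.77 (standard error 0.18, adjusted p = 0.16) in Oct4-MO, -0.43 (0.18, adjusted p = 0.31) in Ccna2-MO embryos and -0.60 (0.13, adjusted p = 0.035) in the mean, a 1.51-fold fall. This call was the less firm of the pair. It was lost without any 1 of the 6 uninjected arrays (adjusted p from 0.052, without array 2 of the Oct4 experiment, to 0.11, without array 1), without Oct4-MO array 2 or 3 (0.083 and 0.086), without Ccna2-MO array 2 (0.068) and without an intensity trend in the fit (0.058). A dimmer probe set of Polr3e had a log2 change of 0.07 (standard error 0.19, adjusted p = 0.92), and the mean of both probe sets gave -0.27 (adjusted p = 0.32).

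Polr3g and Polr3gl encode alternative forms of one Pol III subunit, RPC7, which belongs to a trimer that acts in initiation together with the products of Polr3c and Polr3f. Polr3g is known as the form of stem cells and early embryos and Polr3gl as the form of most differentiated cells. They lie at chr13:81673837-81711013 and chr3:96577872-96594181. Polr3g was 266, 109 and 226 on the Oct4-MO arrays and 332, 445 and 345 on their uninjected arrays, and 140, 118 and 266 on the Ccna2-MO arrays and 450, 287 and 430 on theirs. All 6 injected arrays lay below their uninjected groups. The log2 change was -0.92 (standard error 0.36, adjusted p = 0.45) in Oct4-MO and -1.14 (0.36, adjusted p = 0.17) in Ccna2-MO embryos. The mean was -1.03 (0.25, adjusted p = 0.057), which missed the threshold. It passed without Oct4-MO array 1 (adjusted p = 0.041), without Ccna2-MO array 3 (0.027), with array weights (0.044), among the brighter probe sets alone (0.031) and over gene means (0.035).

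Polr3gl went the other way. It was 60, 46.9 and 68.5 on the Oct4-MO arrays and 20.4, 52 and 22.8 on their uninjected arrays, and 120, 54.3 and 36.6 on the Ccna2-MO arrays and 28.7, 8.95 and 24.1 on theirs. The Ccna2 groups did not overlap, while the second uninjected array of the Oct4 experiment lay within the range of the Oct4-MO arrays. The log2 change was 0.69 (standard error 0.39, adjusted p = 0.65), 1.16 (0.39, adjusted p = 0.19) and 0.93 in the mean (0.27, adjusted p = 0.11), so that none passed, and adjusted p in the mean stayed between 0.053 and 0.25 over the 21 alternatives. The log2 ratio of the Polr3gl to the Polr3g probe set within an array was -1.47 ± 0.45 on the Oct4-MO and -1.18 ± 1.13 on the Ccna2-MO arrays, against -3.08 ± 0.28 and -3.49 ± 0.11 on their uninjected arrays (SD, n = 3 each). The ratio was higher on all 6 injected arrays, -2.42 at the lowest, than on any uninjected array, -2.76 at the highest. It was chosen after the values were seen and carries no test, and because the probe sets differ it does not show which gene is more abundant. Polr3gl was dim, at 8.95 to 52 on the uninjected arrays, where the ratio depends on the constant added before the logarithm. With 1 in place of 16, an alternative chosen after seeing the data, it was -3.63 ± 0.49 and -4.29 ± 0.49 on the uninjected arrays, and -2.83 at the lowest on an injected array against -3.07 at the highest on an uninjected one.

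To show what precedes the start sites of the called genes and of the Polr3g pair, the RefSeq promoter sequences (GRCm38.p6) were searched over the 250 bases before each annotated start. Sequences were found for 20 of 24 genes, 21 starts in all, and 32851 starts of the whole table served for comparison. The octamer ATGCAAAT, a motif bound by Oct4, was in 0 of the 21 on either strand, and in 1.6% of all starts. At so low a share, 21 starts are too few for a count of 0 to set them apart from all starts. The GC box GGGCGG was in 13 of 21 (61.9%) against 32.7% of all starts, and the ETS motif CCGGAAGT in 4 of 21 (19%) against 2.88%. TATAAA was in 2 of 21 (9.52%) against 12.4%, and CCAAT in 6 of 21 (28.6%) against 33.8%. Also searched were CACGTG (9.52% against 6.02%), TGACGTCA (0 of 21, against 1.55%) and GCGCATGC (9.52% against 2.26%). These counts describe letters and not bound sites. A window of 30 bases around one match is shown for each of the 4 genes, 5′ to 3′ on the gene's strand, with the GC box or its reverse complement, or for Polr3gl the reverse complement of CCAAT, in capitals.
Polr2h, chr16:20717796-20717825, plus strand: ctcggcctcgttgccgcttttgGGGCGGta
Polr3e, chr7:120917700-120917729, plus strand: agctcgccgaagGGGCGGtcccgcgcgcgc
Polr3g, chr13:81711133-81711162, minus strand: cgacacacaggaCCGCCCccacacgggcag
Polr3gl, chr3:96594188-96594217, minus strand: ccgctctcgtcgATTGGccaggaaaaccca
Of the genes lower in 6 of 6 pairs, Polr1b, Polr1c, Polr1e, Polr2h, Polr3e and Polr3g held a GC box, and Polr3b and Polr3k held none. A GC box was also held by Polr2a, Polr2b, Polr2i and Polr2j, with mean log2 changes of 0.05, 0.11, 0.04 and 0.11. Polr2e (-0.18) and Polr3c (-0.41) held one too. Whether the GC box goes with the changes was not tested.

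Polr3a and Polr3b encode the catalytic pair of Pol III. Polr3b, the second largest subunit, was 302, 135 and 181 on the Oct4-MO arrays against 387, 278 and 275, and 172, 51.8 and 165 on the Ccna2-MO arrays against 301, 187 and 398. It was lower in 6 of 6 pairs, with groups apart in the Ccna2 experiment and overlapping in the Oct4 experiment. Its log2 change was -0.62 (standard error 0.43) and -1.18 (0.43), and -0.90 (0.30, adjusted p = 0.15) in the mean. None of these passed. Polr3a, the largest subunit, was 723, 440 and 881 against 968, 884 and 1400 in the Oct4 experiment, where the groups did not overlap, and 967, 571 and 1680 against 997, 1600 and 1550 in the Ccna2 experiment, where they did. Its mean log2 change was -0.57 (standard error 0.26, adjusted p = 0.31).

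The remaining Pol III genes spread more. Polr3k, a small subunit needed for transcript cleavage, was lower in 6 of 6 pairs with a mean log2 change of -0.36 (standard error 0.16, adjusted p = 0.31). Polr3d was dim, at 25.8 to 241 over the arrays, with -0.71 (0.35, adjusted p = 0.37), and Polr3c had -0.41 (0.35, adjusted p = 0.64). Polr3f, the partner of Polr3c and Polr3g in the trimer, was the only Pol III gene beside Polr3gl above 0 in the mean, at 0.26 (0.24, adjusted p = 0.68).

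**Figure D3:**
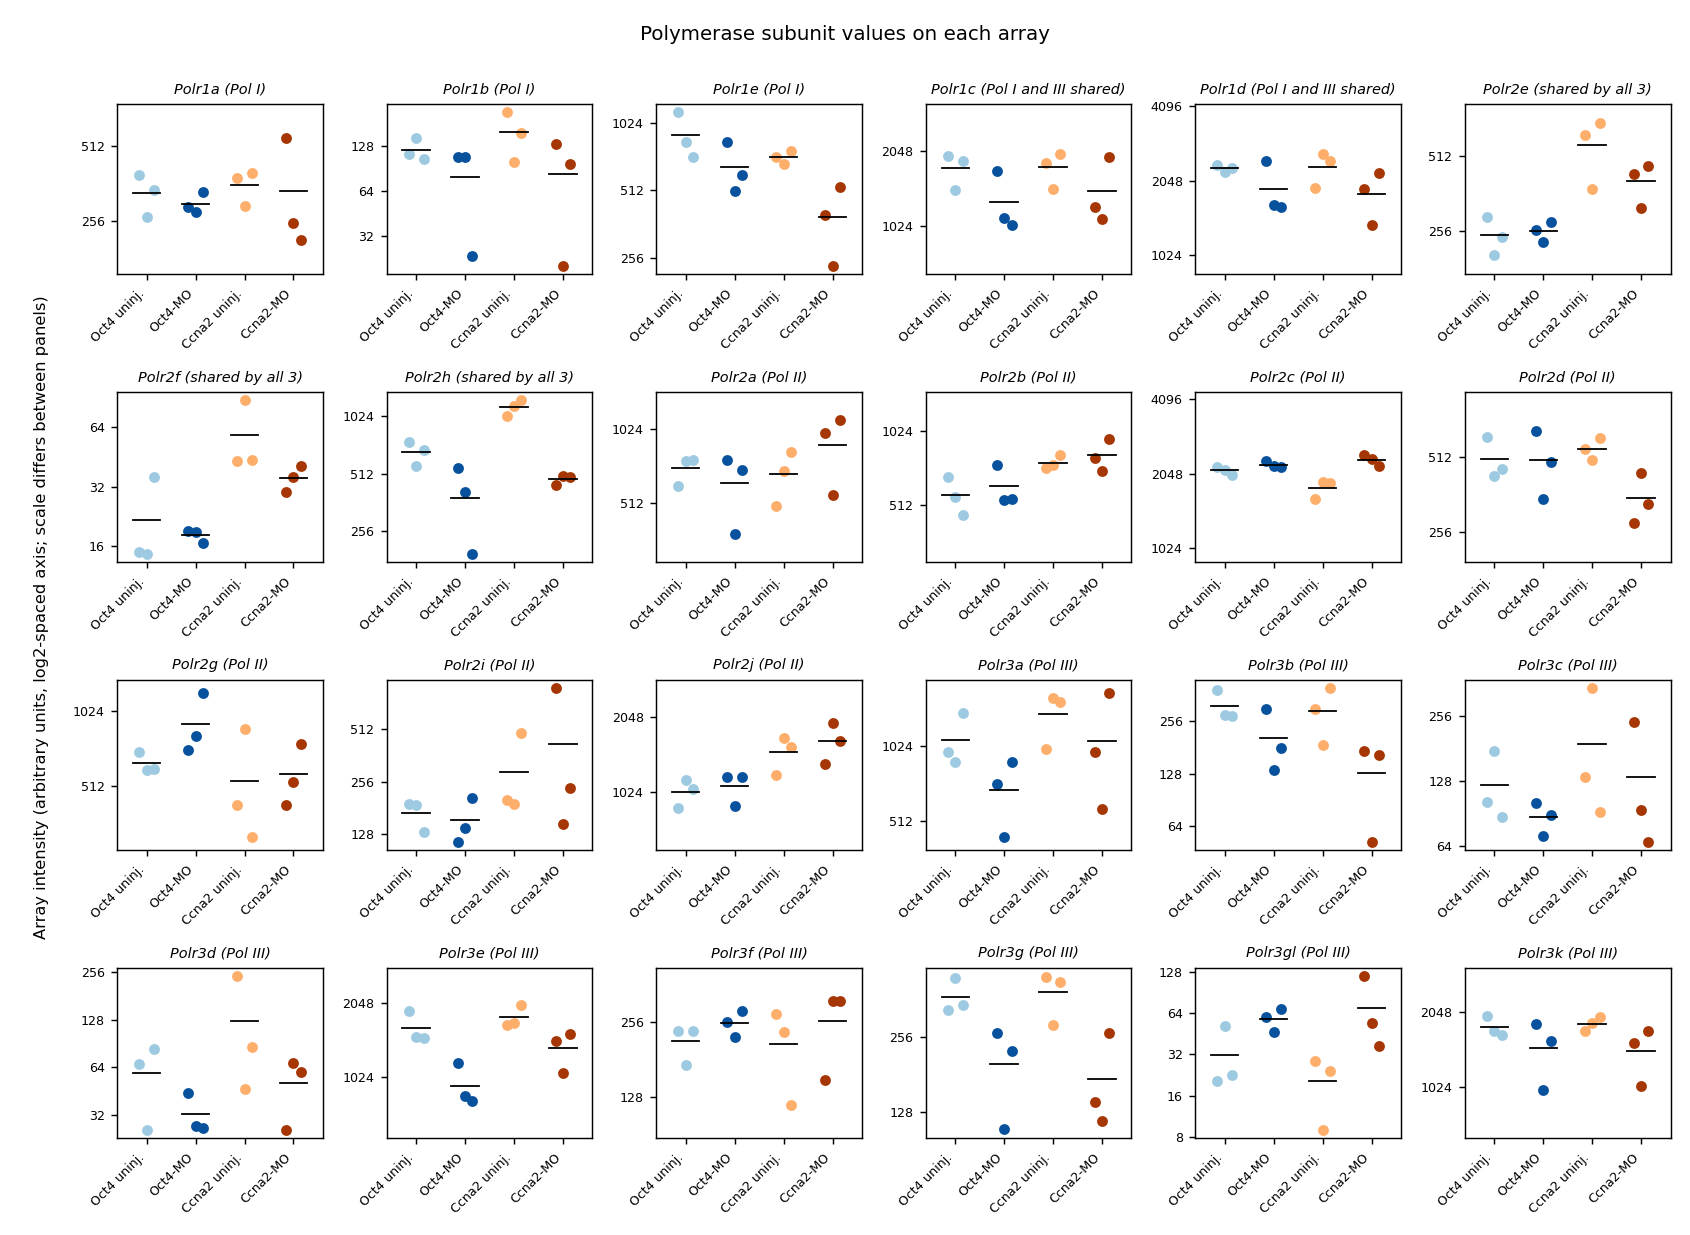
Values of the 24 subunit genes on each of the 12 arrays (y axis, intensity in arbitrary units on a log2-spaced axis whose range differs between panels) in the uninjected and injected groups of both experiments (x axis), with 1 point per array and a line at each group mean. Injected points of Polr2h, Polr3e and Polr3g lie below all points of their own uninjected group in both experiments, and those of Polr2c lie above them in the Ccna2 experiment.

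Of the Pol I genes, Polr1e, which encodes the PAF53 subunit, an aid to initiation, was 838, 509 and 597 on the Oct4-MO arrays against 1140, 841 and 716, and 396, 234 and 529 on the Ccna2-MO arrays against 716, 670 and 768. It was lower in 6 of 6 pairs, and the groups were apart in the Ccna2 experiment. The log2 change was -0.47 (standard error 0.29, adjusted p = 0.69), -0.94 (0.29, adjusted p = 0.15) and -0.70 in the mean (0.20, adjusted p = 0.096). The mean passed without Ccna2-MO array 3 (adjusted p = 0.042) and over gene means (0.047). Its other probe set gave -1.02 (0.27, adjusted p = 0.069), and that one passed with the pairs as a block (0.031).

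Polr1b, the second largest Pol I subunit, was 109, 108 and 23.5 against 114, 146 and 106, and 132, 19.9 and 97.6 against 218, 101 and 158. It was lower in 6 of 6 pairs, yet 1 injected array in each experiment lay far below the other two, and the mean log2 change of -0.84 had a standard error of 0.39 (adjusted p = 0.33). Polr1a, the largest subunit, had a mean change of -0.16 (0.22, adjusted p = 0.80) on its brightest probe set. A dimmer Polr1a probe set gave -0.84 (0.20, adjusted p = 0.046), with all injected arrays below the uninjected ones in both experiments: 93.8, 71.9 and 125 against 251, 140 and 176, and 113, 107 and 121 against 215, 248 and 188. With the pairs as a block its adjusted p was 0.073. The probe sets of Polr1a therefore disagreed on whether the transcript fell. Both genes common to Pol I and Pol III, Polr1c and Polr1d, encode the pair of subunits on which the enzymes assemble, and had mean changes of -0.40 (standard error 0.17, adjusted p = 0.28) and -0.34 (0.14, adjusted p = 0.26). Polr1c was lower in 6 of 6 pairs and Polr1d in 5 of 6.

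Lower in all 6 pairs were 8 of the 24 genes, Polr1b, Polr1c, Polr1e, Polr2h, Polr3b, Polr3e, Polr3g and Polr3k, where 6.68% of all genes were. Higher in all 6 was 1 gene, Polr2c, where 5.38% of all genes were. Injected arrays all below the uninjected ones were found for 4 subunits in the Oct4 experiment (9.57% of all genes), for 7 in the Ccna2 experiment (9.29%) and for 3 in both (2.5%, and 3.85% of those brighter than the median probe set). Of the 11417 brighter genes, 1428 were below in the Oct4 and 1393 in the Ccna2 experiment. Above all uninjected arrays was 1 subunit in the Oct4 experiment, Polr2g (9.21% of all genes), and 2 in the Ccna2 experiment, Polr2c and Polr3gl (9.89%). Of the brighter genes, 1180 and 1310 were above. The 3 in both were Polr2h, Polr3e and Polr3g. Polr1e, Polr2d, Polr2f and Polr3b were below in the Ccna2 experiment alone and Polr3a in the Oct4 experiment alone.

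The Pol II genes held closer to 0. Polr2a encodes the largest subunit, with the repeated tail that carries the phosphorylation marks of the transcription cycle. It was 763, 384 and 700 against 604, 756 and 767, and 985, 553 and 1110 against 499, 692 and 825, overlapping in both experiments, with a mean change of 0.05 (standard error 0.22, adjusted p = 0.94). Polr2b, the second largest, had 0.11 (0.14, adjusted p = 0.79). Polr2c, of the assembly platform, was 2300, 2200 and 2190 against 2190, 2130 and 2020, and 2430, 2360 and 2210 against 1620, 1900 and 1880. It had the smallest standard error of the 24 genes, and its log2 change was 0.08 (0.10, adjusted p = 0.90) in Oct4-MO and 0.37 (0.10, adjusted p = 0.10) in Ccna2-MO embryos. Its platform partner Polr2j had 0.11 (0.13) and Polr2i, a subunit for fidelity, 0.04 (0.38) in the mean.

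Polr2d and Polr2g encode the stalk that projects from the enzyme, and in the mean of both knockdowns they were the lowest and the highest of the 7 Pol II genes, at -0.35 and 0.33. Polr2d was 278, 442 and 331 on the Ccna2-MO arrays against 552, 498 and 611, which did not overlap (log2 change -0.66, standard error 0.26, adjusted p = 0.28), and was at -0.04 (0.26, adjusted p = 0.99) in Oct4-MO embryos. Polr2g was 711, 811 and 1210 on the Oct4-MO arrays against 702, 592 and 600 (0.48, standard error 0.33, adjusted p = 0.74) and 0.18 (0.33, adjusted p = 0.87) in Ccna2-MO embryos. The difference between the knockdowns was itself tested, and 0 of 24 subunits passed, where 0% of all genes did. At an unadjusted p under 0.05 the count of subunits was also 0. The largest differences were those of Polr2d, 0.62 (standard error 0.37, adjusted p = 0.80), and Polr2a, -0.61 (0.44, adjusted p = 0.83), of opposite sign. For Polr2h the difference was 0.35 (0.41, adjusted p = 0.90) and for Polr3e -0.34 (0.26, adjusted p = 0.83).

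The other subunits common to all 3 enzymes did not follow Polr2h closely. Polr2e had mean changes of 0.07 (standard error 0.26, adjusted p = 0.98) in Oct4-MO and -0.43 (0.26, adjusted p = 0.51) in Ccna2-MO embryos. Polr2f was near the floor of the array, at 14.6 to 87.9, with -0.10 (0.29) and -0.48 (0.29). They stood out in another comparison, that of the uninjected embryos of the 2 experiments. Polr2e was 624, 378 and 697 on the uninjected arrays of the Ccna2 experiment and 291, 204 and 241 on those of the Oct4 experiment, without overlap. The log2 difference was 1.12 (standard error 0.26, unadjusted p = 0.001 from limma, adjusted p = 0.15). Polr2f differed by 0.97 (0.29, adjusted p = 0.23) and Polr2h by 0.77 (0.29, adjusted p = 0.34) in the same direction. None of the 24 subunits passed here, where 0.116% of all genes did, and 5 of 24 were higher in the Ccna2 experiment at an unadjusted p under 0.05, Polr2b and Polr2j with the shared genes, where 5.67% of all genes were. A further gene, Polr2c, was lower in the Ccna2 experiment at that p, where 6.32% of all genes were. Of the 11417 genes brighter than the median probe set, 739 were higher and 808 lower. The uninjected groups came from different embryo pools and received no MO.

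Only 11 of the 24 genes had 1 probe set, and the other 13 allowed a check of the representative. Among those with one sign on every probe set were Polr3b and Polr3d, with mean log2 changes of -0.90, -0.68 and -0.82 for Polr3b and of -0.71 and -0.88 for Polr3d. Polr1c gave -0.40 and -0.70, the latter with an adjusted p of 0.087 that became 0.033 with the pairs as a block, and the bright probe sets of Polr3a gave -0.57 and -0.61 while a dim one gave 0.17. The probe sets of Polr1d other than the brightest lay between -0.07 and 0.11, and those of Polr3k spread from -0.36 to 0.14. The brighter probe sets of Polr3k, -0.36 and -0.29, were the lower ones. Probe sets of a gene can report different transcript ends, and those whose names end in x or s can bind other transcripts.

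**Figure D4:**
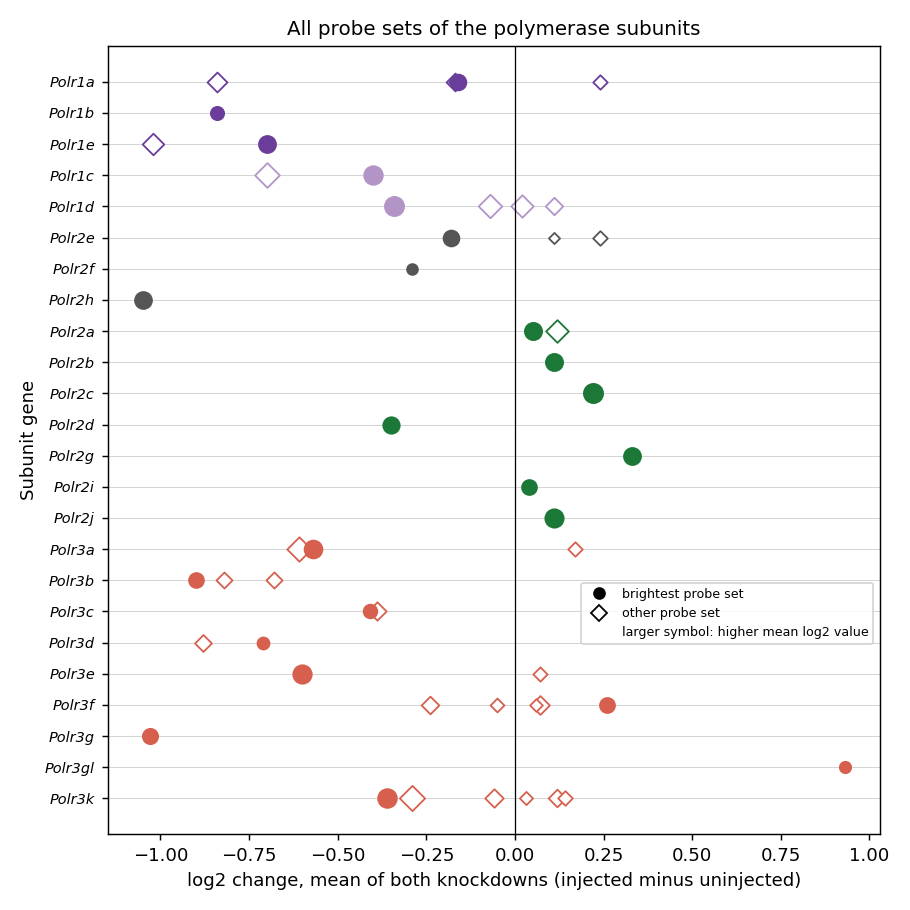
Mean log2 change of both knockdowns (x axis, injected minus uninjected) for all 52 probe sets of the 24 subunit genes (y axis). Filled circles mark the brightest probe set of a gene, open diamonds the others, and a larger symbol a higher mean log2 value; the probe sets of Polr3b and Polr3d lie together below 0, and those of Polr1a spread from -0.84 to 0.24.

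Genes that work with these enzymes were counted on lists drawn up by function. As background for these counts, 2.02% of all genes were called lower and 1.19% higher in the mean of both knockdowns. Of 16 Pol III initiation factors and their regulators, 13 lay below 0 in the mean of both knockdowns, with a median of -0.41, and 2 fell: Gtf3c1 (-1.12, standard error 0.25, adjusted p = 0.041) and Gtf3c6 (-0.50, 0.11, adjusted p = 0.032; 0.056 with the pairs as a block). Both encode subunits of TFIIIC, which binds the internal promoters of transfer RNA genes. The TFIIIC genes Gtf3c5 (-0.93, 0.24, adjusted p = 0.064) and Gtf3c4 (-0.71, 0.20, adjusted p = 0.085) came close. Brf2, which belongs to a form of the factor TFIIIB, had -1.33 (0.43, adjusted p = 0.14), which became 0.023 with the pairs as a block. In the single knockdowns 0 of 16 passed, 6 and 7 of them were lower at an unadjusted p under 0.05, and 0 were higher. At that p 5.96% and 8.5% of all genes were lower after Oct4-MO and Ccna2-MO injection, and 4.66% and 8.22% higher. Of 6 factors of Pol I, 5 lay below 0 in the mean, with a median of -0.38 and none past the threshold. Ubtf, the main activator at ribosomal RNA genes, had -0.82 (0.21, adjusted p = 0.064) and Taf1d 0.26 (0.08, adjusted p = 0.13). A further list held polymerase genes whose symbols lie outside the rule. All 5 measured ones lay below 0 in the mean and none passed. Cd3eap, a Pol I subunit, had -1.68 (0.36, adjusted p = 0.055) in Ccna2-MO against 0.17 (adjusted p = 0.95) in Oct4-MO embryos, a difference whose own adjusted p was 0.59. Others on that list were Znrd1 (-0.75, adjusted p = 0.30), Twistnb (-0.47, 0.47) and Polr2m (-0.59, 0.43), whose letter lies past the rule's a to l.

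The 33 general factors of Pol II were mixed, with 19 below 0 and a median of -0.10. In the mean of both knockdowns 1 fell, Gtf2h5 of TFIIH (-0.76, standard error 0.17, adjusted p = 0.043), and 3 rose, Gtf2b (0.67, 0.14, adjusted p = 0.033), Taf3 (0.40, 0.09, adjusted p = 0.045) and Taf13 (0.47, 0.09, adjusted p = 0.023). Over all genes 2.02% were called lower in this mean and 1.19% higher. With the pairs as a block Taf3 (0.051) and Taf13 (0.055) no longer passed. Gtf2b, which encodes the factor TFIIB that recruits Pol II to the promoter, also rose in Ccna2-MO embryos alone (1.24, standard error 0.20, adjusted p = 0.026) and had 0.11 (adjusted p = 0.94) in Oct4-MO embryos, with an adjusted p of 0.54 for the difference. Taf9b had 1.46 (0.32, adjusted p = 0.056) in Ccna2-MO and Gtf2h1 -0.81 (adjusted p = 0.34) in Oct4-MO embryos.

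Of 21 genes for polymerase assembly, nuclear import and the phosphatases of the Pol II tail, 14 lay below 0, with a median of -0.48. Uxt (-1.33, standard error 0.31, adjusted p = 0.047) and Pdrg1 (-0.98, 0.23, adjusted p = 0.048), both prefoldin-like members of the complex that assembles polymerases in the cytoplasm, fell, and Rpap2 (0.93, 0.19, adjusted p = 0.029), a phosphatase of the Pol II tail, rose. With the pairs as a block the adjusted p was 0.058 for Uxt and 0.054 for Pdrg1. Rprd2 had -0.96 (0.24, adjusted p = 0.06) and passed with the block (0.04). Brf2 and Rprd2 were named after their values were seen. Wdr92 (-1.04, 0.31, adjusted p = 0.10) and Rprd1a (-0.66, 0.16, adjusted p = 0.055) did not pass. Of 8 genes of mitochondrial transcription, which use a separate polymerase, 6 lay below 0, with a median of -0.08 and none past the threshold. The mitochondrial polymerase Polrmt itself had -0.54 (0.41, adjusted p = 0.60), Tefm -0.47 (0.31, 0.54), Mterf4 0.59 (0.34, 0.46) and Tfb1m 0.20 (0.33, 0.84). With 1 array left out, each of the 9 listed genes that passed lost its call at least once, with adjusted p up to between 0.075 (Taf13) and 0.12 (Taf3, Uxt and Pdrg1). In the mean of both knockdowns their calls held in 8 (Taf3, Uxt and Pdrg1) to 15 (Taf13) of 21 alternatives. Over all genes 46% lay below 0 in this mean, with a median of 0.02, while 2.02% were called lower and 1.19% higher.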

How the data were processed

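RNA of pooled 2-cell embryos was hybridised to 12 Affymetrix Mouse Genome 430 2.0 arrays. Intensity values, 1 for each probe set and not log-transformed, were deposited by the authors after normalization in dChip, whose version and options are not given in the sources. Of 45001 probe sets, 64 controls were left out. The platform annotation gave 1 symbol for 34849, several for 928 (not named) and none for 9160, and 0 symbols changed through the gene ID. Low values were not filtered. By mean log2 value all 24 subunits were above the median probe set. Between 39.3 and 42.7% of probe sets were under 16 on an array, and 3 arrays per group limit the precision.

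Groups and pairs came from the labels. A linear model with 4 group means over 12 arrays was fitted to log2(value + 16) with R 4.3.3 and limma 3.58.1 (intensity trend, empirical Bayes), and p-values were adjusted by Benjamini-Hochberg over 44937 probe sets. On this scale the changes of dim genes are understated. The supplement of the study counts 3 experiments for each knockdown, and p-values measure the spread between their arrays. By the labels, embryos of one collection supplied an injected pool and the uninjected pool with its number, so the numbers pair the samples. Deviations of paired arrays correlated at 0.083, 0.0308 and 0.00911 (Oct4) and -0.0128, 0.0841 and 0.114 (Ccna2). The steps were tested on simulated arrays.

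The subunits and the lists were chosen with earlier results of these data known. All subunits are named; from the lists, each gene called in a knockdown comparison and, per list and knockdown, the 2 of smallest p. Alternatives were a pair block, the 6 uninjected arrays of both experiments as common controls, a fit to 1 comparison's 6 arrays, a fit without intensity trend, another constant in the logarithm (1 or 64), the brighter probe sets alone, quantile normalization, centring on array medians, weighted arrays, an unpaired t-statistic (the study ranked genes by a score that joins it with fold changes, which was not run), gene means, and each array left out.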

Additional observations from a re-analysis of the deposited data

How the results depend on the processing

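The count of subunits called in Oct4-MO embryos was 0, and 2 (Polr2h and Polr3e) with all 6 uninjected arrays as controls. Those controls moved the Polr2h change from -0.87 to -1.26. Polr2h averaged 1140 on the uninjected arrays of the Ccna2 experiment and 664 on those of the Oct4 experiment. In Ccna2-MO embryos the count was 0, and 1 (Polr2h) among the brighter probe sets alone and without Oct4-MO array 1 or 3, so that leaving out 1 array gave 0 to 1. In the mean of both knockdowns it was 2, 1 without an intensity trend, and 0 to 4 with 1 array left out; it was 0 without uninjected array 1 or 3 of the Oct4 experiment or any uninjected array of the Ccna2 experiment. The counts for the difference between the knockdowns and for the uninjected embryos stayed at 0 under every alternative run. The Pol I median in Oct4-MO embryos, -0.47, ran from -0.66 to -0.20 with 1 array left out, and the Pol II median, 0.08, was -0.11 with all 6 uninjected arrays as controls and ran from -0.01 to 0.19 with 1 array left out. The Pol I median in Ccna2-MO embryos was -0.38 without Ccna2-MO array 2. Medians of Pol III stayed between -0.71 and -0.22 in Oct4-MO and between -0.54 and -0.27 in Ccna2-MO embryos over 24 alternatives; the medians of single enzymes were added as results after the data were seen. The replicate block left the subunit calls at 0, 0, 0 and 2 and changed no other call than those given in the report; it cannot be fitted for the uninjected embryos. An unpaired t-statistic with Benjamini-Hochberg adjustment, called at 0.05, gave 0 subunits in each knockdown; it was run neither for the mean nor for the difference. In the knockdown comparisons and their mean, no subunit with an unadjusted p under 0.05 changed sign under any alternative run; signs of single genes were not followed for the uninjected embryos. The cause of these shifts was not tested.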
